A study of Mus musculus with 53 samples.

Results

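Lung tumours started by a vector against Cdkn2a were followed in mice of 3 genotypes, to ask whether their size relative to inert tumours persists when p53 is deleted. The members were the tumours listed under the target label Cdkn2a in the mice that received the pool of vectors, 17815 of the 409584 tumours of the series, found in 35 of its 53 mice. Barcoded lentiviral vectors carrying Cre and an sgRNA were instilled into the trachea, barcodes were amplified from DNA of whole lungs, and each mouse gave 1 library. The deposited table gives the target, the barcode and the absolute number of cells of each tumour.

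The pool mice were KTC (n = 10), KPTC (n = 12) and KLTC (n = 13), all with 15 weeks of tumour growth. By the usual naming of such strains, all of them carry a fluorescent reporter (T) and Cas9 (C), while P adds p53 and L adds Lkb1 alleles that Cre removes, so every tumour of a KPTC mouse, the inert ones included, starts without p53. The other 18 mice received a single vector for 9 weeks and held 0 Cdkn2a tumours. Inert tumours carry an sgRNA without a target gene and were the control within each mouse. The exon cut by the Cdkn2a sgRNA and the edited sequence of each tumour are, in the sources used here, not given, so a tumour with the label may hold no, 1 or several disrupted alleles. The labels name no cell-specific promoter for Cre and describe the cells as lung epithelium.

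Cdkn2a (gene ID 12578) is an unusual locus, since RefSeq lists 2 proteins and 2 start sites for it. Its product p16INK4a inhibits the cyclin D kinases CDK4 and CDK6 and so keeps Rb1 active, and its product p19ARF, read in another frame, inhibits Mdm2 and so stabilises p53. Loss of the locus can therefore touch both the Rb and the p53 pathway, and with p53 already deleted the arm through Rb1 and other p53-independent actions of ARF remain. These are background facts and not results of the tumour sizes.

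The barcode is the only sequence listed for each tumour. The largest Cdkn2a tumour of each genotype is shown by it, since these tumours weigh on every sum of cells below. The capitals are the fixed bases AA, TT and AA, which 91.0% of the 15920 distinct Cdkn2a barcodes of 21 bases held, and the lower case bases vary between barcodes.
KTC replicate 6, 2938740 cells: AAggggcTTcgagtAAaactg
KPTC replicate 8, 101929000 cells: AAtgaggTTcacacAAgctgg
KLTC replicate 4, 4670010 cells: AAccggtTTgcctcAAtagcg
The KTC barcode was listed in 8 mice, the KPTC barcode in 18 and the KLTC barcode in 20. In the other 17 mice that listed it, the KPTC barcode had from 931 to 323146 cells, with a median of 70364, so its largest listing was 315 times the next. That tumour was 21.2 times the second-largest Cdkn2a tumour of the genotype.

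Libraries thus share barcodes. Of the Cdkn2a barcodes, 811 (5.09%) were listed in 2 or more mice, and the share of tumours with their barcode in another mouse went from 13.1% of the 7422 tumours of 500 to under 1000 cells to 29 of the 30 tumours of 1000000 cells or more (96.7%). In the median KTC mouse, 2.08% of Cdkn2a tumours and 6.30% of inert tumours had a listing of their barcode in another mouse that was at least 10 times larger. These shares were 3.39% and 7.65% in KPTC mice and 33.6% and 28.7% in KLTC mice. What part repeated barcodes have in the results was not tested beyond leaving such tumours out. Calls that change without them are given both ways. Leaving them out removes only listings far smaller than another of the same barcode. In the median mouse it took a larger share of inert tumours in KTC and KPTC and of Cdkn2a tumours in KLTC, so it is not neutral between them.

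The depth of a mouse was its number of listed tumours, since reads are not in the table. A KTC mouse listed from 33 to 1390 Cdkn2a tumours (median 778.5) beside 482 to 7195 inert ones. KPTC mice listed from 161 to 1782 (median 640) beside 1069 to 8178. KLTC mice listed the fewest, from 29 to 690 (median 131) beside 171 to 4279, so single tumours weigh most in that genotype. The smallest listed size in a mouse lay between 500.6 and 982 cells over the 3 genotypes. Mouse IDs opened with IW in 8 KTC, 7 KPTC and 7 KLTC mice, with MW in 2 KTC mice, with ZR in 6 KLTC mice and with no letters in 5 KPTC mice. The meaning of these letters is, in the sources used here, not given, and values for the IW mice, the ID prefix common to the 3 genotypes, are given where a call changes.

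Cdkn2a tumours were larger than inert tumours in the p53-deleted KPTC mice. Size was summarised as a log-normal mean, which adds 0.5 times the variance of the log sizes to their mean before taking the exponential, and the effect was the log2 ratio of Cdkn2a to inert tumours within a mouse. In KPTC mice the log-normal mean of Cdkn2a tumours ranged from 1547 to 6082 cells (median 2415), and that of inert tumours from 1360 to 5001 (median 1823). The per-mouse log2 ratio ran from −0.11 in replicate 10 to 0.50 in replicate 5, with a median of 0.25, and it was above 0 in 10 of 12 mice. The mean was 0.19 ± 0.20 (SD, n = 12), a 1.14-fold difference with a 95% interval of 1.05 to 1.25 (adjusted p = 0.0121, two-sided exact sign-flip permutation test over mice, adjusted over 11 targets). Of the 11 targets, 72.7% were called higher than inert in this genotype, so a call in KPTC mice was the common outcome.

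In KTC mice, whose tumours start with p53, Cdkn2a tumours had log-normal means from 1546 to 3765 cells (median 2359), beside 1179 to 3624 (median 2432) for inert tumours. The log2 ratio ran from −0.076 in replicate 10 to 0.39 in replicate 9, with a median of 0.065, and was above 0 in 6 of 10 mice. Its mean was 0.11 ± 0.17 (SD, n = 10), 1.08-fold, and did not pass the test (interval 0.986 to 1.17; adjusted p = 0.150, exact sign-flip permutation test), where 45.5% of targets passed. With the largest tumour of every target removed from each mouse, the KTC value was -7.5e-05, a removal that weighs more on Cdkn2a than on the more numerous inert tumours.

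KLTC mice, with Lkb1 deleted, had the widest range of sizes. Their Cdkn2a tumours had log-normal means from 2275 to 141997 cells (median 11437), and their inert tumours from 1824 to 70047 (median 7932). Replicate 7, with 36 Cdkn2a tumours, gave both highest values, beside arithmetic means of 63704 cells for Cdkn2a and 70364 for inert tumours. Its Cdkn2a tumours were thus larger by log-normal mean, and smaller by arithmetic mean and at the 95th percentile (log2 ratio −0.44). In replicate 12 the log-normal mean of Cdkn2a tumours (70685 cells) lay below their arithmetic mean (116723). The log2 ratio of log-normal means ran from −1.09 in replicate 13 to 1.03 in replicate 11, with a median of 0.49, and was above 0 in 11 of 13 mice. The mean, 0.34 ± 0.56 (SD, n = 13) or 1.26-fold, did not pass the test (interval 0.997 to 1.57; adjusted p = 0.196, exact sign-flip permutation test), where 9.09% of targets passed. It passed without KLTC replicate 13 (0.46, adjusted p = 0.0134) and without tumours matched at 10 times their size in another mouse (0.54, adjusted p = 0.0421). The second removal took 33.6% of Cdkn2a and 28.7% of inert tumours in the median KLTC mouse. It takes out listings far smaller than another of the same barcode, and these need not be small themselves. In KLTC replicate 4 it took a Cdkn2a tumour of 87329 cells. All 7 IW mice were above 0, at 0.54 ± 0.29, while the 6 ZR mice had a mean of 0.11 ± 0.73.

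**Figure D1:**
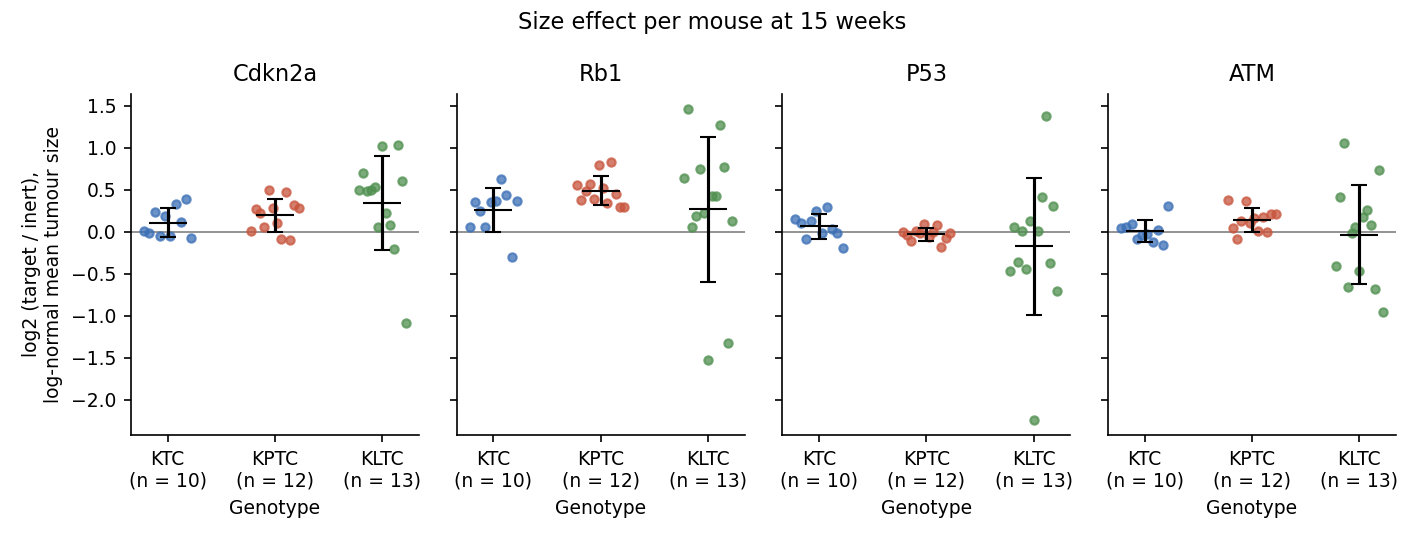
Size effect (log2 of target over inert log-normal mean size within a mouse, vertical axis) of Cdkn2a, Rb1, P53 and ATM tumours in KTC, KPTC and KLTC mice (horizontal axis), each point being a mouse and each bar the mean ± SD. The Cdkn2a points of KPTC mice lie above 0 in 10 of 12 mice, and the KLTC points spread from −1.09 to 1.03.

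The direct question is whether the Cdkn2a effect differs with the deleted gene, and no difference between genotypes passed the test. KPTC mice exceeded KTC mice by 0.087 ± 0.079 (SE) on the log2 scale, with a 95% interval of −0.080 to 0.25 (adjusted p = 0.352, two-sided permutation of mouse labels, adjusted over 11 targets). The interval thus includes an equal effect, an effect up to 1.19-fold greater with p53 deleted and one down to 0.946-fold. KLTC mice exceeded KTC mice by 0.23 ± 0.16 (interval −0.15 to 0.59; adjusted p = 0.426) and KPTC mice by 0.14 ± 0.17 (interval −0.20 to 0.48; adjusted p = 0.558). Other targets did differ, with 54.5% of targets called between KPTC and KTC and 27.3% in each of the comparisons with KLTC. The 3 comparisons share mice, and all targets share the inert tumours of their mouse. The means of the Cdkn2a effect thus stood in the order KTC, KPTC, KLTC, and no neighbours in that order differed beyond their spread.

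Within the IW mice the Cdkn2a effect was 0.095 ± 0.14 in KTC (n = 8) and 0.18 ± 0.22 in KPTC (n = 7), the latter no longer past the threshold (adjusted p = 0.129, exact sign-flip permutation test). The 5 KPTC mice without letters were all above 0, at 0.21 ± 0.19. The KLTC minus KTC difference within IW mice was 0.44 (adjusted p = 0.00556, exact permutation), and over all mice without KLTC replicate 13 it was 0.35 (adjusted p = 0.0350).

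The percentiles at which Cdkn2a tumours exceeded inert tumours lay between the 80th and the 95th, and none was called at the median. Percentiles of Cdkn2a tumours were set against those of inert tumours of the same mouse from the 50th to the 99th, with the same sign-flip test. The median differed by −0.0062 ± 0.072 in KTC, 0.049 ± 0.13 in KPTC and 0.13 ± 0.27 in KLTC mice. In KPTC mice the 80th percentile was higher by 0.10 ± 0.12 (adjusted p = 0.0246), the 90th by 0.20 ± 0.19 (adjusted p = 0.0101) and the 95th by 0.31 ± 0.35, or 1.24-fold (10 of 12 mice, adjusted p = 0.0170). These 3 of 7 percentiles passed, beside 57.1% of all tests of targets and percentiles in the genotype. Without tumours matched at 10 times their size in another mouse they were 0.050, 0.12 and 0.15, and none of the 3 passed (adjusted p = 0.316, 0.0544 and 0.115), while the log-normal mean still did (0.14, adjusted p = 0.0406). None of the 3 passed in the 7 IW mice either, at 0.088, 0.21 and 0.25 (adjusted p = 0.246, 0.0859 and 0.0573, exact sign-flip permutation test). At a minimum of 1500 cells the 95th percentile was 0.50 and missed the threshold (adjusted p = 0.0967).

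In KTC mice the 90th percentile was the 1 of 7 that passed, beside 28.6% of tests in the genotype. Cdkn2a tumours had 90th percentiles from 1843 to 10988 cells (median 6607) and inert tumours from 1900 to 8443 (median 5959). The log2 ratio was above 0 in 8 of 10 mice, at 0.18 ± 0.27 (adjusted p = 0.0251, exact sign-flip permutation test), with replicate 3 apart from the others at 0.86. Without replicate 3 it was 0.11 and still passed (adjusted p = 0.0430), and without replicate 2, 5 or 8 it was 0.19 and missed the threshold (adjusted p = 0.0501 in each). Without matched tumours it was 0.13 (adjusted p = 0.197), and at a minimum of 1500 cells it was 0.11 (adjusted p = 0.507). The difference between KPTC and KTC mice at this percentile was 0.017, with an interval of −0.19 to 0.22. In KLTC mice 0 of 7 percentiles passed by this test, with 1 of 7 at an unadjusted p below 0.05, beside 3.9% of tests in the genotype. The 90th percentile of KLTC mice, 0.43 ± 0.87, passed without KLTC replicate 13 (0.61, adjusted p = 0.0161).

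The far end of the distribution was uncertain. At the 99th percentile the ratio was 0.041 ± 0.79 in KTC, 0.78 ± 1.26 in KPTC (8 of 12 mice, adjusted p = 0.0875) and −0.38 ± 1.03 in KLTC mice (3 of 13). In a mouse with about 30 Cdkn2a tumours this percentile is close to the largest of them. The KPTC value passed without KPTC replicate 8 (0.93, adjusted p = 0.0457). KLTC lay below KPTC by 1.16 (SE 0.46, interval −2.12 to −0.21; adjusted p = 0.0409, permutation of mouse labels), beside 10.4% of the tests of targets and percentiles called between these genotypes. This difference missed the threshold when adjusted over all of those tests (0.179), without matched tumours (−1.0, adjusted p = 0.0563), at a minimum of 1500 cells (−0.99, adjusted p = 0.103), in IW mice (−1.22, adjusted p = 0.197, exact permutation), and without any 1 of KPTC replicates 5, 6, 7, 9 and 12 or KLTC replicates 1, 4 and 7 (from −1.11 to −0.97). No percentile of Cdkn2a passed between KPTC and KTC or between KLTC and KTC (0 of 7 unadjusted by the permutation test in each), beside 10.4% and 7.79% of tests.

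**Figure D2:**
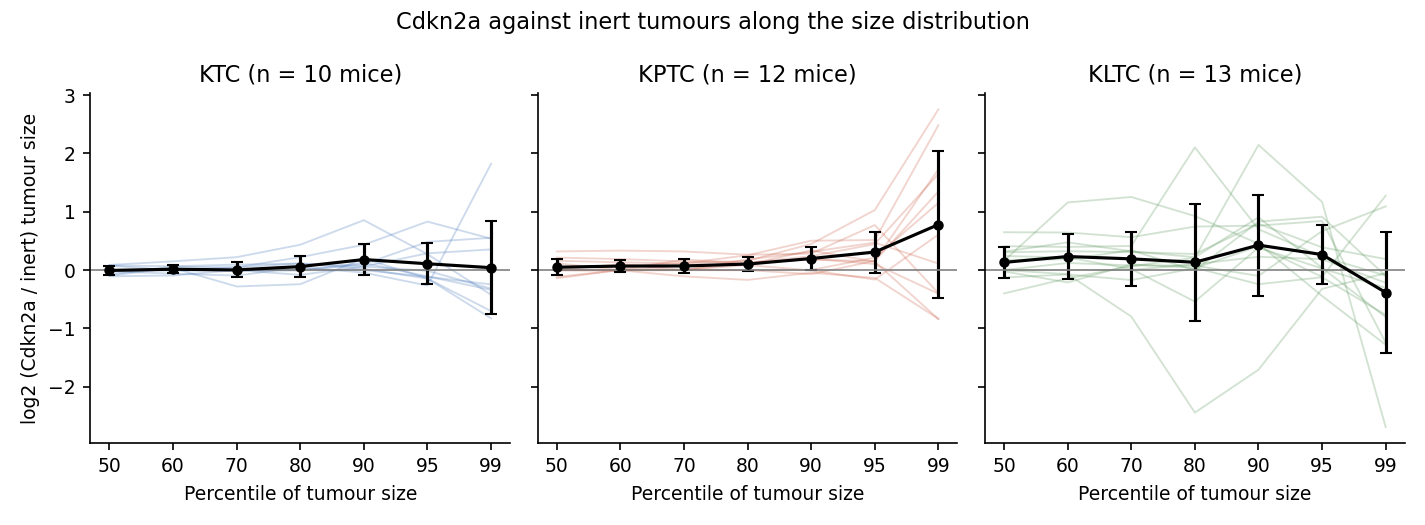
Log2 ratio of Cdkn2a to inert tumour size (vertical axis) at the 50th to 99th percentile of each mouse (horizontal axis) in KTC, KPTC and KLTC mice. Thin lines are mice and black points are means with SD bars. The KPTC mean rises from 0.049 at the median to 0.31 at the 95th percentile, and the SD exceeds the mean at the 99th percentile in all 3 genotypes.

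Fixed sizes gave the same comparison without depending on each mouse's own percentiles. In KPTC mice from 2.66% to 12.5% (median 5.29%) of Cdkn2a tumours had 10000 cells or more, beside 1.97% to 10.8% (median 3.45%) of inert tumours. The excess was 1.12 ± 0.90 percentage points, above 0 in 11 of 12 mice (adjusted p = 0.00671, exact sign-flip permutation test), and it was the 1 of 3 fixed sizes that passed, beside 30.3% of such tests over all targets. At 100000 cells the excess was 0.40 ± 0.57 points (8 of 12 mice, adjusted p = 0.0881). The share at 1000000 cells differed by 0.075 ± 0.22 points, on a median of 0.5 Cdkn2a tumours per mouse.

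In the other genotypes no fixed size was called with all tumours included. In KTC mice the shares of tumours with 10000 cells or more were 2.89% to 10.7% (median 5.66%) for Cdkn2a and 2.07% to 8.51% (median 6.08%) for inert tumours, an excess of 0.45 ± 0.95 points (7 of 10 mice, adjusted p = 0.298). In KLTC mice they were 4.93% to 38.9% (median 17.2%) and 4.44% to 37.5% (median 14.7%), an excess of 1.62 ± 3.05 points (10 of 13 mice, adjusted p = 0.219). Without tumours matched at 10 times their size in another mouse, the KLTC excess was 3.84 points and passed (adjusted p = 0.0344). That removal took a larger share of Cdkn2a than of inert tumours in the median KLTC mouse. By the sign-flip test 0 of 3 sizes passed in either genotype, and 0 of 3 had an unadjusted p below 0.05, beside 18.2% of such tests in KTC and 3.03% in KLTC mice.

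The number of Cdkn2a tumours was compared only between genotypes, since how much of the virus pool each vector made up is not in the table. For every inert tumour the log2 number of Cdkn2a tumours was −2.51 ± 0.49 in KTC, −2.41 ± 0.29 in KPTC and −2.55 ± 0.28 in KLTC mice at all listed sizes. The groups overlapped, with KTC replicate 9 far below the rest at −3.87, and no difference of Cdkn2a passed. KPTC minus KTC was 0.097 (interval −0.22 to 0.44), KLTC minus KTC −0.043 (−0.34 to 0.29) and KLTC minus KPTC −0.14 (−0.38 to 0.096), beside 9.09%, 0% and 27.3% of targets called. For KLTC minus KTC, 0 of 11 targets passed the permutation test and 3 had an unadjusted p below 0.05. Among IW mice alone the Cdkn2a value of that comparison was −0.35 and passed (adjusted p = 0.0218, exact permutation).

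Among tumours of 10000 cells or more, Cdkn2a was called more frequent in KPTC mice than in both other genotypes. No other fixed size gave either call. The log2 number per inert tumour ran from −2.31 to −1.72 in KPTC mice (median −1.98), from −3.32 to −1.86 in KTC mice (median −2.36) and from −2.81 to −2.0 in KLTC mice (median −2.35), so the ranges overlapped. The lowest KTC value, of replicate 9, rested on 1 Cdkn2a and 10 inert tumours. KPTC exceeded KTC by 0.39 ± 0.14 (SE), 1.31-fold with an interval of 1.10 to 1.59 (adjusted p = 0.0340, permutation of mouse labels), and Cdkn2a was the single target called in that comparison (9.09%). KLTC lay below KPTC by 0.35 ± 0.083 (interval −0.53 to −0.18; adjusted p = 0.00258), where 36.4% of targets were called. KLTC and KTC differed by 0.040 ± 0.14 (adjusted p = 0.860), where 18.2% of targets were called.

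These differences of number depended on the size chosen. KPTC minus KTC was 0.24 at 5000 cells, 0.28 at 20000 and 0.23 at 50000, with adjusted p from 0.459 to 0.792 by permutation. As a ratio of shares, which takes out the number at all sizes, it was 0.30 (adjusted p = 0.117). The call was lost without any 1 of KTC replicates 2, 3, 4 and 10 or KPTC replicates 2, 3, 6, 7, 8, 9 and 11 (0.36 to 0.40, adjusted p at most 0.0692), without the barcode of the largest Cdkn2a tumour (0.37, adjusted p = 0.0529) and in IW mice (0.30, adjusted p = 0.124). KLTC minus KPTC passed without each mouse in turn, and missed at 5000, 20000 and 50000 cells (−0.26, −0.11 and −0.29), as a ratio of shares (−0.21, adjusted p = 0.280) and in IW mice (−0.37, adjusted p = 0.0705).

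**Figure D3:**
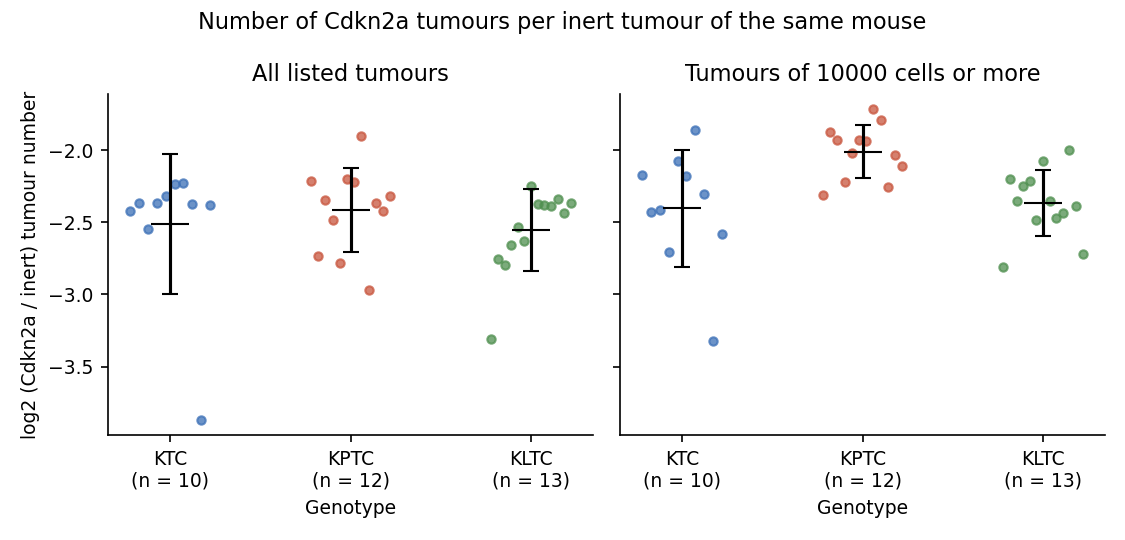
Log2 number of Cdkn2a tumours per inert tumour of the same mouse (vertical axis) by genotype (horizontal axis), for all listed tumours and for those of 10000 cells or more, each point being a mouse and each bar the mean ± SD. At all sizes the means lie between −2.55 and −2.41, with 1 KTC mouse at −3.87, and at 10000 cells the KPTC mean is −2.01 beside −2.40 and −2.37.

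Summed cells rested on a few tumours. Cdkn2a tumours held from 2.30% to 5.88% of the listed cells of a KTC mouse (median 3.76%), from 1.89% to 60.9% in KPTC mice (median 5.53%) and from 2.44% to 6.36% in KLTC mice (median 3.99%), while they were 5.16%, 5.38% and 4.58% of the listed tumours in the median mouse. The value of 60.9% belonged to KPTC replicate 8, where the tumour with the KPTC barcode printed above held 98.3% of the Cdkn2a cells. Without the largest Cdkn2a tumour of each mouse the medians were 2.91%, 3.44% and 2.97%.

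No difference in the log2 ratio of Cdkn2a to inert cells passed. KPTC exceeded KTC by 0.48 (interval −0.45 to 1.51; adjusted p = 0.553, permutation of mouse labels), by 0.081 without KPTC replicate 8, and the sign turned to −0.026 without that 1 barcode in every mouse. KLTC minus KPTC was −0.69 (interval −1.58 to 0.13) and −0.29 without KPTC replicate 8, and KLTC minus KTC was −0.21 (interval −0.57 to 0.15). The arithmetic mean size relative to inert tumours was 0.21 ± 0.52 in KTC, 0.58 ± 1.44 in KPTC and 0.040 ± 0.39 in KLTC mice on the log2 scale, and none passed.

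**Figure D4:**
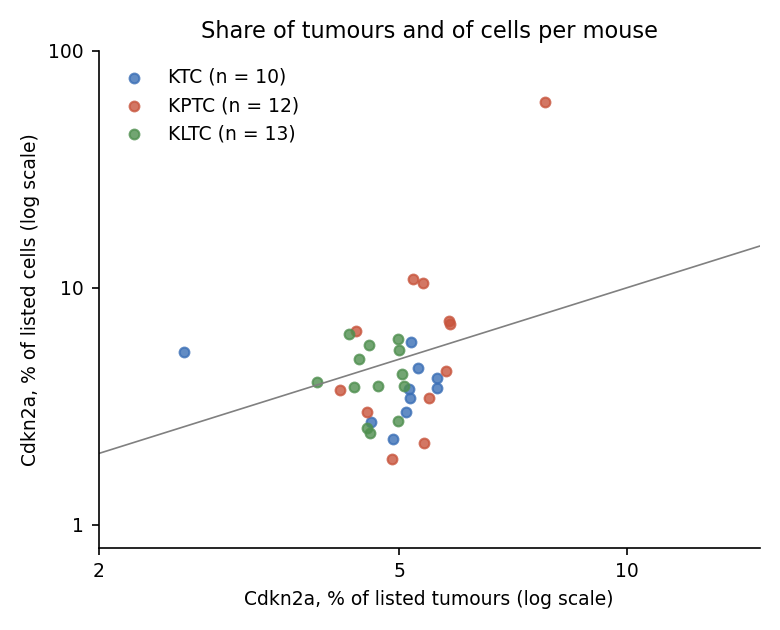
Percent of listed cells held by Cdkn2a tumours (vertical axis, log scale) against the percent of listed tumours that carry the label (horizontal axis, log scale), with a point per mouse, coloured by genotype; the line marks equal percentages. KPTC replicate 8 stands at 60.9% of cells, and the other mice lie between 1.89% and 10.9%.

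Beside Cdkn2a stand the other targets of the pathways its products act on, which were Rb1, the pocket protein downstream of p16INK4a, P53, the transcription factor downstream of p19ARF, and ATM, the kinase that signals DNA breaks to p53. Of these 3, Rb1 was higher than inert in KTC mice (1 of 3), Rb1 and ATM in KPTC mice (2 of 3) and none in KLTC mice (0 of 3, and 0 of 3 unadjusted, by the sign-flip test). The median log2 effect of the 3 was 0.065, 0.14 and −0.034, beside 0.11, 0.16 and 0.25 over all 11 targets. Rb1 tumours of KPTC mice ranged from 0.30 to 0.82 (median 0.47) and were above 0 in 12 of 12 mice. Between KPTC and KTC mice Rb1 was the 1 of 3 that differed, at 0.23 ± 0.096 (SE; adjusted p = 0.0357, permutation of mouse labels), and ATM missed the threshold at 0.13 ± 0.058 (adjusted p = 0.0547).

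Cdkn2a tumours were also set against each other target within the same mouse, so that inert tumours drop out. In KPTC mice Cdkn2a tumours were larger than P53 tumours by 0.22 ± 0.18 (SD, n = 12), 1.17-fold and in 11 of 12 mice (adjusted p = 0.0146, exact sign-flip permutation test over mice, adjusted over 10 targets). P53 is the target whose gene KPTC tumours already lack, and its own effect against inert tumours was −0.029 ± 0.077. Cdkn2a tumours were smaller than Rb1 tumours by −0.30 ± 0.24, 0.815-fold, and larger than them in 2 of 12 mice (adjusted p = 0.0179). They were likewise smaller than Lkb1 (−0.21, adjusted p = 0.0232) and Setd2 tumours (−0.50, adjusted p = 0.0146), and did not differ from ATM tumours past the threshold (0.053 ± 0.20). In IW mice alone the values against P53 and Rb1 were 0.20 and −0.32 and missed the threshold (adjusted p = 0.156 in each).

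In KTC mice Cdkn2a and P53 tumours differed by 0.043 ± 0.20 (5 of 10 mice, adjusted p = 0.521), and the step from KTC to KPTC in this ratio was 0.18 ± 0.082 (SE; adjusted p = 0.0984, permutation of mouse labels). Against Rb1 the KTC value was −0.15 ± 0.33, with Cdkn2a larger in 1 of 10 mice (adjusted p = 0.319), and it passed without KTC replicate 9 (−0.24, adjusted p = 0.0130). Cdkn2a tumours were smaller than Lkb1 (−0.90) and Setd2 tumours (−1.11) in all 10 mice (adjusted p = 0.00977 in each). In KLTC mice 0 of 10 targets differed from Cdkn2a by the sign-flip test, with 1 at an unadjusted p below 0.05. That was Lkb1, which these tumours already lack, with Cdkn2a larger by 0.61 ± 0.85 in 10 of 13 mice (adjusted p = 0.215). It passed the sign-flip test without tumours matched in another mouse (0.64, adjusted p = 0.0464). That removal takes out only listings far smaller than another of the same barcode, whatever their own size.

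**Figure D5:**
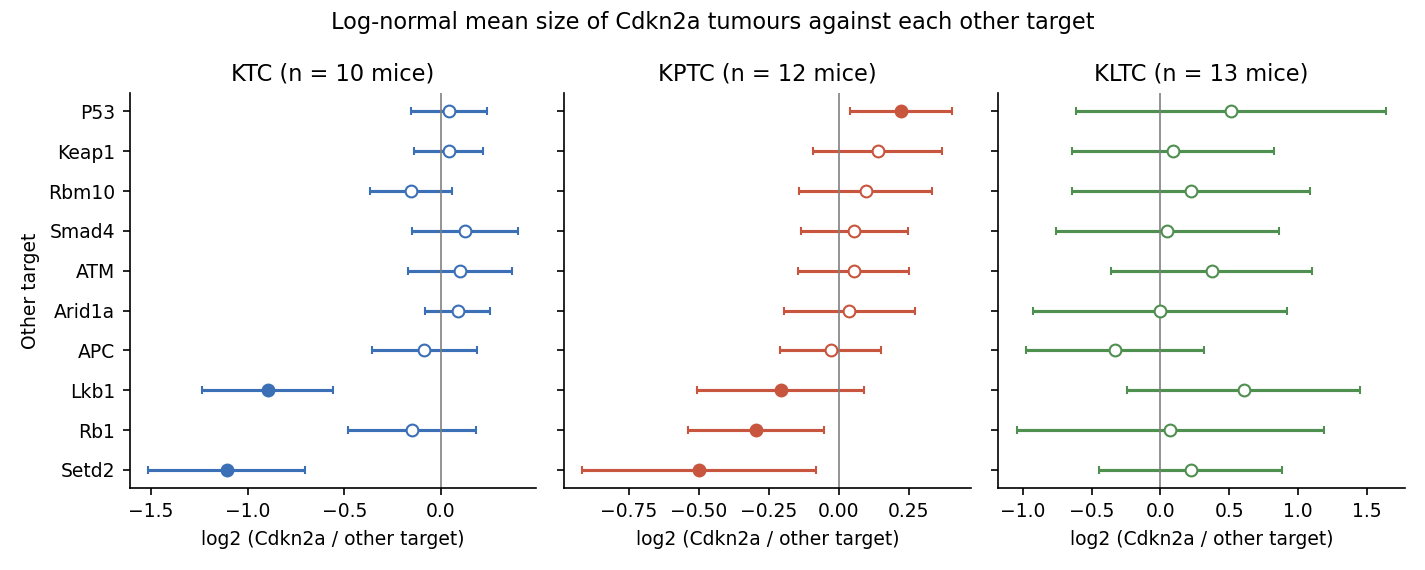
Log-normal mean size of Cdkn2a tumours over that of each other target in the same mouse, as a log2 ratio (horizontal axis), for each target (vertical axis) in KTC, KPTC and KLTC mice, as mean and SD over mice; filled points passed the adjusted test, and each panel has its own horizontal scale. In KPTC mice Cdkn2a lies above P53 (0.22) and below Rb1 (−0.30).

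The targets most like Cdkn2a, by the root mean square difference of the 3 genotype means of the size effect, were Arid1a (0.055), which belongs to a chromatin remodelling complex, and Smad4 (0.084), which relays TGF-beta signals. Arid1a had means of 0.021 ± 0.063, 0.16 ± 0.11 and 0.34 ± 0.81 in KTC, KPTC and KLTC mice, and Smad4 of −0.017 ± 0.12, 0.14 ± 0.11 and 0.29 ± 0.50. Rb1 ranked 5 of 10 in this likeness (0.20) and P53 ranked 8 (0.32).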

How the data were processed

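The deposited table lists, per the authors' name for it, absolute tumour sizes in cells, by mouse, target and barcode. How reads were grouped into barcodes and scaled to cells is, in the sources used here, not given, and every listed size was above 500 cells. Mice were grouped by the genotype and weeks in the labels, and numbered in accession order. The mouse was the replicate, and a target was used in a mouse with at least 10 tumours. Effects against inert tumours of the same mouse were tested with two-sided exact sign-flip permutation tests, and genotypes with two-sided permutations of mouse labels (100000 resamples, or exact enumeration where a group had fewer than 10 mice). P-values were adjusted by Benjamini-Hochberg over the 11 targets (10 for direct comparisons), at a threshold of 0.05. Intervals of 95% invert these tests. Read depth is unknown, so errors are spreads between mice. Nothing in the labels says whether mice of a genotype were littermates.

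The genes described were Cdkn2a, the list of Rb1, P53 and ATM, the target of the deleted gene, and the 2 targets nearest in effect. Members and lists were chosen with earlier results of these data known. All 11 labels were paired with mouse genes in a RefSeq table, with Lkb1 as Stk11 and P53 as Trp53. Alternatives changed the minimum size, the summary of size, the adjustment, the control and the mice or tumours left out. Those chosen after seeing the data were other fixed sizes, the ratio of shares, the removal of the barcode of the largest Cdkn2a tumour and adjustment over all percentiles or fixed sizes. Scripts used Python 3.11.15, numpy 2.4.6 and pandas 2.3.3. They were tested on simulated data, where recovery of known differences was required in KTC and KPTC mice and not in KLTC mice.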

Additional observations from a re-analysis of the deposited data

Results flagged for a closer look

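The 10 KTC mice were examined for a mouse apart from the rest in 11 measures, and 4 measures held one. KPTC and KLTC mice, with more than 10 a group, were not examined in this way. Chance gives about 1 in 20 for a single measure. The measures share mice and tumours, so the count of 4 cannot be set against that rate. KTC replicate 9, with 33 Cdkn2a tumours the fewest of its genotype, accounted for 3 of the 4. Its log2 number of Cdkn2a tumours per inert tumour was −3.87, its 99th percentile ratio was 1.82, and its share of tumours of 100000 cells or more exceeded that of inert tumours by 2.82 percentage points. It also held the highest KTC size effect (0.39), and it is 1 of the 2 KTC mice with the MW prefix. The 90th percentile ratio of KTC replicate 3 was 0.86, where the group mean was 0.18.

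Differences between genotypes that passed their own test were the 99th percentile of KLTC minus KPTC mice (−1.16), and the number at 10000 cells or more of KPTC minus KTC (0.39) and of KLTC minus KPTC mice (−0.35). Each of these calls was lost under some of the alternatives, which are named with the results.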

How the results depend on the processing

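The KPTC effect (0.19) kept its direction under all 26 alternatives run and its call under 22; it was not called at a minimum of 5000 cells (0.47), as arithmetic mean (0.58), as median (0.049) and in IW mice (0.18). The KTC effect never passed and turned with the median (−0.0062) and without the largest tumour of each target (-7.5e-05). KLTC passed without matched tumours (0.54), and ranged from 0.28 to 0.46 without single mice. KPTC minus KTC did not pass under any of 35 alternatives (0.055 to 0.46). KLTC minus KTC was 0.17 to 0.35 without single mice, −0.17 for arithmetic means and 0.44 in IW mice, where it passed. KLTC minus KPTC turned at minimums of 1000 (−0.084), 1500 (−0.078) and 5000 cells (−0.23), for arithmetic means (−0.54) and for the 95th percentile (−0.043). The number of the 11 targets called larger was 5, 8 and 1 in KTC, KPTC and KLTC mice, and ranged from 0 to 5, 0 to 8 and 0 to 4.

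At a minimum of 1500 cells the signs turned for the 95th percentile in KLTC (−0.14) and of KLTC minus KTC (−0.16), the 99th percentile in KTC (−0.32), the arithmetic mean in KLTC (−0.070) and the number at all sizes of KLTC minus KTC (0.031), while Cdkn2a against Rb1 in KPTC (−0.37), the 90th percentile in KTC (0.11), the 95th in KPTC (0.50) and the 99th of KLTC minus KPTC (−0.99) missed the threshold and Cdkn2a against ATM in KPTC passed it (0.34). Without the largest tumour the arithmetic means of KTC (−0.20) and KLTC (−0.15) turned. Without matched tumours the 95th percentile of KLTC minus KPTC (0.087), the 99th in KTC (−0.069), ATM in KPTC (−0.038) and Rb1 in KLTC (−0.012) turned, the number at 10000 cells of KPTC minus KTC missed (0.36) and Lkb1 in KLTC passed (0.64). In IW mice the 95th percentile of KLTC minus KPTC (0.13), the 99th in KTC (−0.073), the number at 10000 cells of KLTC minus KTC (−0.072) and P53 in KTC (−0.012) turned; Rb1 in KTC (−0.22) and the number at all sizes of KLTC minus KTC (−0.35) passed; and the numbers at 10000 cells of KPTC minus KTC (0.30) and KLTC minus KPTC (−0.37), and Rb1 (−0.32) and P53 (0.20) in KPTC, missed.

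The number at 10000 cells of KPTC minus KTC missed without the largest barcode (0.37), at 5000 (0.24), 20000 (0.28) and 50000 cells (0.23) and as a ratio of shares (0.30); KLTC minus KPTC missed at the same sizes (−0.26, −0.11, −0.29) and as shares (−0.21); KLTC minus KTC turned at 5000 (−0.015) and 50000 cells (−0.062). The cell share of KPTC minus KTC turned without the largest barcode (−0.026).

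Without single mice, the ranges were −0.16 to 0.14 for the 99th percentile in KTC, −0.030 to 0.35 for the 80th in KLTC, −0.12 to 0.023 for the 95th of KLTC minus KPTC, −0.026 to 0.10 for the arithmetic mean in KLTC, −0.24 to −0.12 for Rb1 in KTC and −0.13 to 0.20 in KLTC. For number they were −0.054 to 0.15 (KPTC minus KTC) and −0.19 to 0.020 (KLTC minus KTC) at all sizes, and 0.29 to 0.45 and −0.062 to 0.10 at 10000 cells. The cause was not tested for any of these.

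Depth limits the KLTC mice most, with as few as 29 Cdkn2a tumours in a mouse, and the IW comparisons, with 7 or 8 mice a group. Tumours below 500 cells, reads and editing were not analysed here.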

Other observations

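The barcode of the largest Cdkn2a tumour was listed in 18 of the 35 mice. Of these, 9 were among the 12 KPTC mice, with a median listing of 90047 cells that counts the largest tumour itself. Another 6 were among the 13 KLTC mice (10424 cells) and 3 among the 10 KTC mice (109998 cells). It was the largest Cdkn2a tumour of 1 of these mice, and between the third and the 506th largest in the others. No listing was in the 2 MW mice, and some mice of each other kind of ID had none either. Repeated Cdkn2a barcodes were more frequent in KLTC mice in each size class under 1000000 cells: 44.7% of tumours of 500 to under 1000 cells and 86.9% of those of 100000 to under 1000000 cells had their barcode in another mouse, beside 8.11% and 53.3% in KTC and 10.6% and 32.9% in KPTC mice. The cause was not tested.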
